A study of Mus musculus with 8 samples.

Results

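The genes of MHC (major histocompatibility complex) class I presentation were examined in splenic myeloid cells of wt and LmnaMyeKO mice. The 10 genes were taken by symbol from the authors' table of 23084 genes, and all 10 were listed, each in 1 row. They are the classical heavy chains H2-K1 and H2-D1, the light chain B2m, the peptide transporter subunits Tap1 and Tap2, tapasin (Tapbp), the nonclassical heavy chains H2-T23, H2-Q7 and H2-M3, and the transactivator Nlrc5. RNA-sequencing was done on 8 samples, 2 in each of 4 groups: wt CD11b+Ly6C+, wt CD11b+Ly6G+, LmnaMyeKO CD11b+Ly6C+ and LmnaMyeKO CD11b+Ly6G+ cells, monocytic (Ly6C+) and granulocytic (Ly6G+) subsets sorted from spleens of C57BL/6 mice aged 6 to 8 weeks. LmnaMyeKO mice carry floxed Lmna, the gene of lamin A/C, and LysM-Cre, which is driven from the Lyz2 locus and active in myeloid cells. The subset was taken from each sample's title, since the cell-marker label reads CD11b+Ly6C+ for all 8 samples.

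The table gives 1 value of expression per gene, the authors' mean over samples of size-factor-normalized counts, and no value per sample. Which of the 8 samples entered that mean is not stated in the sources used here. The values below are therefore levels pooled over genotype, and possibly over subset. They carry no SD and no n, no difference between wt and LmnaMyeKO cells was tested, and no spread between samples can be set against a difference between genes. Lmna itself, listed at a mean of 79.5 normalized counts, cannot serve as a check of the deletion in a pooled value.

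MHC class I molecules display peptides from inside the cell to CD8 T cells. Peptides cut by the proteasome are pumped into the endoplasmic reticulum by the Tap1-Tap2 transporter and loaded, with the help of tapasin, onto a heavy chain paired with β2-microglobulin, the product of B2m. Nlrc5 drives transcription of these genes through a conserved promoter module, and interferons raise them in most cell types.

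The light chain and both classical heavy chains were among the most abundant transcripts of the table, the transporter and tapasin stood lower, and H2-M3 and Nlrc5 were the lowest members. Levels are compared between genes as the authors' mean divided by the length of the longest annotated transcript, in normalized counts per kb. On this scale B2m had 44897 normalized counts per kb, H2-D1 39049 and H2-K1 16443, at rank 27, 31 and 68 of the 23004 genes with an annotated length. The median of the 10 genes was 1967 normalized counts per kb, and that of all genes was 22.5. All 10 lay above at least 82.0% of the genes. Before division by length, the 10 genes together held 0.744% of the summed signal of the table.

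**Figure D1:**
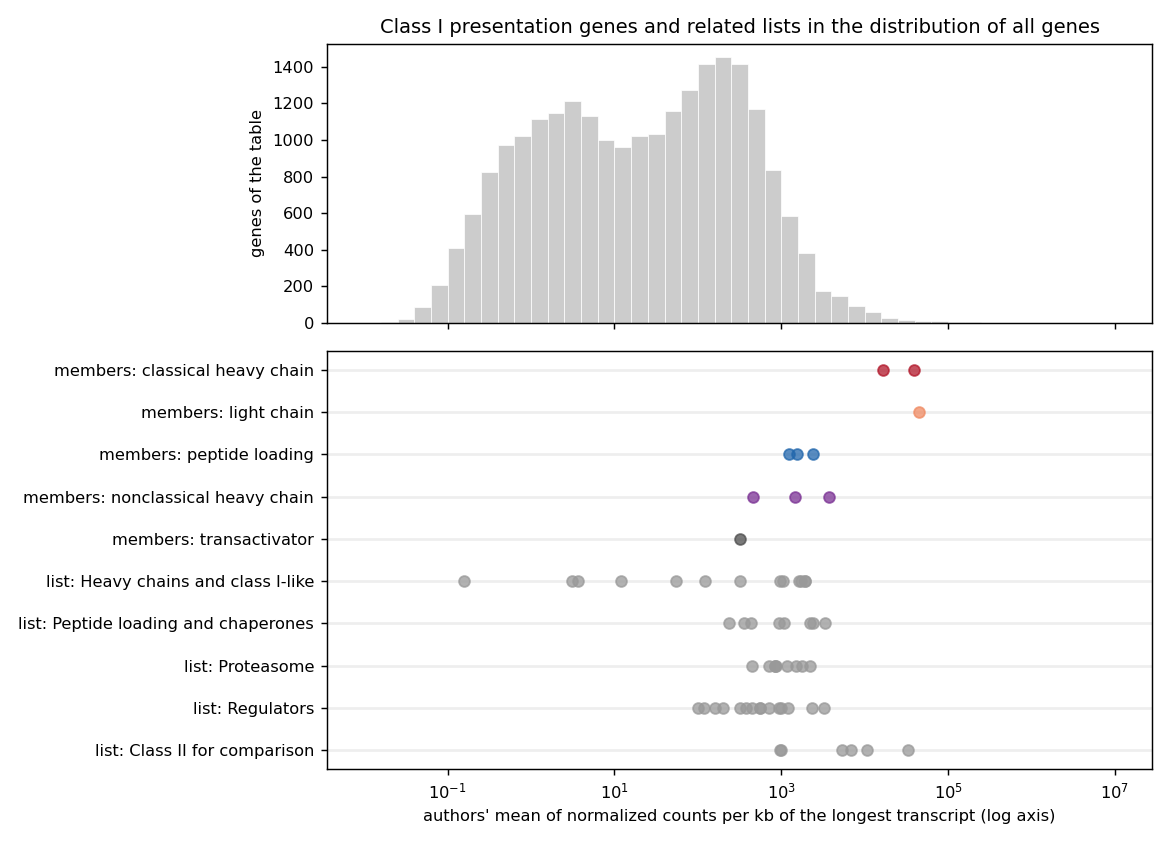
Distribution of the authors' mean of normalized counts per kb over all genes of the table (top, number of genes per bin) and the level of each of the 10 class I presentation genes by role and of each listed gene of the pathway (bottom, 1 point per gene, log axis). The light chain and the classical heavy chains sit at 16443 to 44897 per kb, at the right end of the distribution, and the other 7 members at 323 to 3696.

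H2-K1 and H2-D1 encode the classical class I heavy chains of C57BL/6 mice, which present peptides to CD8 T cells. H2-K1 (ENSMUSG00000061232.15) is transcribed from the minus strand of chromosome 17 (mm10, 33996017 to 34000347), and its mean was 30814 normalized counts. H2-D1 (ENSMUSG00000073411.11) lies on the plus strand of chromosome 17 from 35262730 to 35267499, and its mean was 82082 normalized counts. H2-D1 was 2.37 times H2-K1 per kb of the longest transcript. The ratio was 3.03 per kb of merged exons and 2.72 per kb of coding sequence, so the order of the pair did not depend on the length used. Over 15 H2 class I heavy chain genes (5 members and 10 others of the pathway list, which leaves out H2-Q5, H2-Bl, H2-K2 and H2-T-ps), H2-D1 held 56.2% and H2-K1 23.7% of the summed level per kb, and together they held 79.9%.

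How far reads could be assigned to either gene depends on where their sequences differ. The coding exons 2, 3 and 4 of a class I heavy chain encode the α1, α2 and α3 domains. α1 and α2 form the peptide groove, and α3 contacts CD8. In the GENCODE M21 transcripts, H2-K1 and H2-D1 matched at 246 of 270 bases of coding exon 2 (91.1%), at 243 of 276 bases of coding exon 3 (88.0%) and at 265 of 276 bases of coding exon 4 (96.0%). Coding exons 2 and 4 are shown to contrast an exon of the groove with the conserved exon. They are printed 5′ to 3′ on the coding strand, with capitals at the bases where the 2 genes differ, as read from the reference transcripts. The exon 2 sequences span chr17:33999734-34000003 (minus strand, H2-K1) and chr17:35263379-35263648 (plus strand, H2-D1) of mm10.
H2-K1 coding exon 2: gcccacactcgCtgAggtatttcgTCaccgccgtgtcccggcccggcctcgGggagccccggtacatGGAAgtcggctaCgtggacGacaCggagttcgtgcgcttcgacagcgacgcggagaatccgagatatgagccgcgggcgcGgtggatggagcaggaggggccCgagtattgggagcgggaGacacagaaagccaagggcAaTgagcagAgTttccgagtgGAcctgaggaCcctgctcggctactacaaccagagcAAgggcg
H2-D1 coding exon 2: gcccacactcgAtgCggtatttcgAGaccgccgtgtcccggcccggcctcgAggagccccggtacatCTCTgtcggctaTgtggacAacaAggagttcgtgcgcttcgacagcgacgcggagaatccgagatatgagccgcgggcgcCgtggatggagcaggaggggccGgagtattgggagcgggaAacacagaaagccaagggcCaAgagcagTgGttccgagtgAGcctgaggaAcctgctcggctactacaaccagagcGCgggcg
The 24 differing bases of exon 2 lay from near its start to near its end, some of them singly and others in short runs of adjacent capitals. A long stretch near the middle of the exon, from ggagttcgtg to ccgcgggcgc, held none. The exon 4 sequences span chr17:33997285-33997560 (minus strand, H2-K1) and chr17:35265784-35266059 (plus strand, H2-D1).
H2-K1 coding exon 4: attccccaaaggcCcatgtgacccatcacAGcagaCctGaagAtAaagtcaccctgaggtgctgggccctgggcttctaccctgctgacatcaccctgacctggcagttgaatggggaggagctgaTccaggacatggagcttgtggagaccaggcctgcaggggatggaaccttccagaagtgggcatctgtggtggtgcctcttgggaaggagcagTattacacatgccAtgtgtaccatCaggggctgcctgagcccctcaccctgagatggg
H2-D1 coding exon 4: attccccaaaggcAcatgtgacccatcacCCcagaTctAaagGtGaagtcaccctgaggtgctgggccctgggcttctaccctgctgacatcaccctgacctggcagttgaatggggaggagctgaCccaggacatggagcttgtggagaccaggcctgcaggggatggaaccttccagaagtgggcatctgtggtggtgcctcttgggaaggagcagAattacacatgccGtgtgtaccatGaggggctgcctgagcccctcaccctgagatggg
Most of the 11 differing bases of exon 4 lie close together near its start. Of the others, the first stands alone between long identical stretches. The rest lie towards the end of the exon, with short identical stretches between them. The longest run identical between the whole coding sequences of the 2 genes was 91 bases.

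B2m (ENSMUSG00000060802.8) encodes β2-microglobulin, the invariant light chain without which most class I heavy chains do not reach the surface. It lies on the plus strand of chromosome 2 from 122147686 to 122153083, outside the complex, with 4 exons and a coding sequence of 357 bases. Its mean was 38611 normalized counts. B2m was first of the 10 genes per kb under each of 3 lengths, at 44897 for the longest transcript and for merged exons, which are the same in a gene with 1 annotated transcript, and 108154 for the coding length. The summed level of H2-K1 and H2-D1 was 1.24 times that of B2m per kb of the longest transcript, 0.942 times per kb of merged exons and 0.956 times per kb of coding sequence. Whether H2-K1 plus H2-D1 or B2m is the more abundant was therefore set by the length chosen. This pair held 79.9% (longest transcript), 75.8% (merged exons) and 72.5% (coding sequence) of the summed level per kb of the 15 heavy chain genes. The ratios leave out the other heavy chains, so heavy chain as a whole was not compared with B2m.

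**Figure D2:**
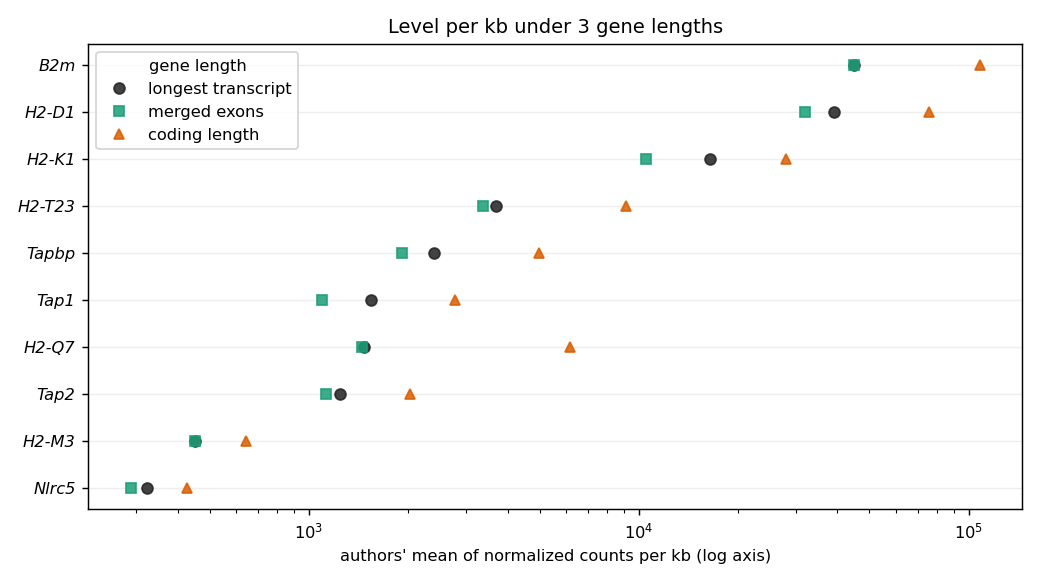
Level of each of the 10 genes as the authors' mean of normalized counts per kb (log axis), with gene length taken as the longest transcript (circles), all exons merged (squares) or the coding sequence (triangles). B2m, H2-D1, H2-K1 and H2-T23 keep the first 4 places under all 3 lengths, and Tapbp, Tap1, Tap2 and H2-Q7 change places.

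Tap1 (ENSMUSG00000037321.17) and Tap2 (ENSMUSG00000024339.12) encode the subunits of the ATP-driven peptide transporter and lie 6301 bases apart on chromosome 17. Tap1 had a mean of 6016 normalized counts and 1538 per kb. Tap2 had a mean of 4261 normalized counts and 1238 per kb. The ratio of Tap1 to Tap2 was 1.24 per kb of the longest transcript and 0.975 per kb of merged exons, so the subunits could not be ordered. Tapbp (ENSMUSG00000024308.14), which holds the empty heavy chain next to the transporter, starts at 33915899 and had a mean of 6943 normalized counts and 2396 per kb. It was 1.56 times Tap1 per kb. Tapbpl, a tapasin-related editor of peptides and no member, had 352 per kb, which put Tapbp at 6.80 times its level.

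The nonclassical heavy chains covered a wide range. H2-T23 (ENSMUSG00000067212.8) encodes Qa-1, a ligand of inhibitory receptors on NK cells, and had a mean of 9764 normalized counts and 3696 per kb, next below H2-K1. H2-Q7 (ENSMUSG00000060550.15) encodes a Qa-2 molecule, and had a mean of 6185 normalized counts and 1469 per kb. H2-M3 (ENSMUSG00000016206.6) encodes a chain that presents formylated peptides of bacteria, and had a mean of 650.3 normalized counts and 452 per kb. H2-T23 stood at 8.17 times H2-M3 per kb of the longest transcript and at 14.1 times per kb of coding sequence. H2-Q7 lay below Tapbp and Tap1 per kb of the longest transcript and above both per kb of coding sequence (6172), since its longest annotated transcript has 4209 bases against a coding sequence of 1002.

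Nlrc5 (ENSMUSG00000074151.13) encodes the class I transactivator and lies on the plus strand of chromosome 8 from 94434356 to 94527272. Its mean was 2447 normalized counts, and with a longest transcript of 7578 bases it was the lowest member per kb, at 323. H2-D1 had 121 times and B2m 139 times its level per kb. Ciita, the related transactivator of class II genes, had 378 per kb. The ratio of Nlrc5 to Ciita was 0.855 per kb of the longest transcript and 1.21 per kb of merged exons, so the pair could not be ordered.

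Of the 10 genes, 8 lie on chromosome 17, which holds 4.44% of the genes of the table with an annotated position. The 8 genes span 3.36 Mb, from Tapbp at 33915899 to the end of H2-M3 at 37274484. The interval holds 189 genes of the table. Their median mean was 192.5 normalized counts, and 132 had a mean of at least 10. Over all 23084 genes of the table the median mean was 46.8 normalized counts, and 14312 had a mean of at least 10.

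The heavy chain genes share sequence, which bears on how reads were divided among them. RSEM, the estimator used by the authors, distributes a read that matches several transcripts by their estimated abundance. In the coding transcript of each gene, every window of 50 and of 100 bases was looked for in the transcripts of all other annotated genes. The read length is not given in the sources used here. For H2-Q7, 40.2% of the windows of 50 bases were also found in another gene, most often H2-Q5 (20.1%) and H2-Q6 (19.6%). The share was 28.8% for H2-T23, 14.3% for H2-D1 and 8.79% for H2-K1. H2-M3 had 0.576%, Tapbp 2.0%, Tap1 0.861%, Tap2 0.737%, and B2m and Nlrc5 0%. With windows of 100 bases, H2-Q7 kept 21.9%, H2-T23 7.28% and H2-D1 4.64%, and H2-K1 had 0%. H2-Q7 thus had the least sequence of its own among the 10, and B2m, Nlrc5, Tap1, Tap2 and H2-M3 had almost nothing but their own. The part of shared sequence in the estimated levels was not tested.

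**Figure D3:**
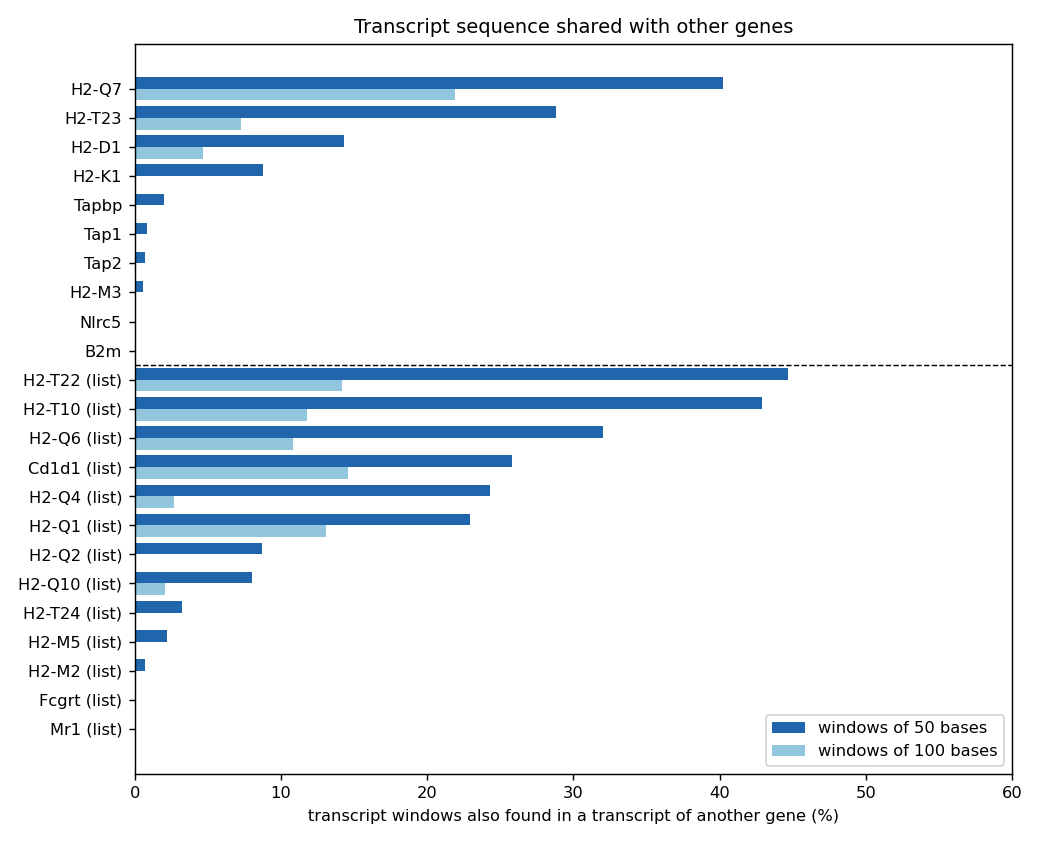
Share of the windows of 50 bases (dark bars) and 100 bases (light bars) of each gene's coding transcript that also occur in a transcript of another gene, for the 10 genes (above the dashed line) and other class I genes (below). H2-Q7 has the largest shares of the 10, 40.2% and 21.9%, and B2m and Nlrc5 have none.

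Among the 5 heavy chains, coding exon 4 was the most alike in all 10 pairs, with 84.8% to 96.4% identical bases. Coding exon 3 ranged from 65.6% between H2-T23 and H2-M3 to 90.2% between H2-D1 and H2-Q7. H2-T23 matched H2-D1 at 96.4% of exon 4 but 69.2% of exon 3. H2-M3 was the most distant, with 72.8% to 75.2% of the aligned bases of its whole coding sequence identical to the others. The longest identical runs were 145 bases between H2-D1 and H2-T23 and 130 bases between H2-D1 and H2-Q7, while no run with H2-M3 was longer than 39.

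**Figure D4:**
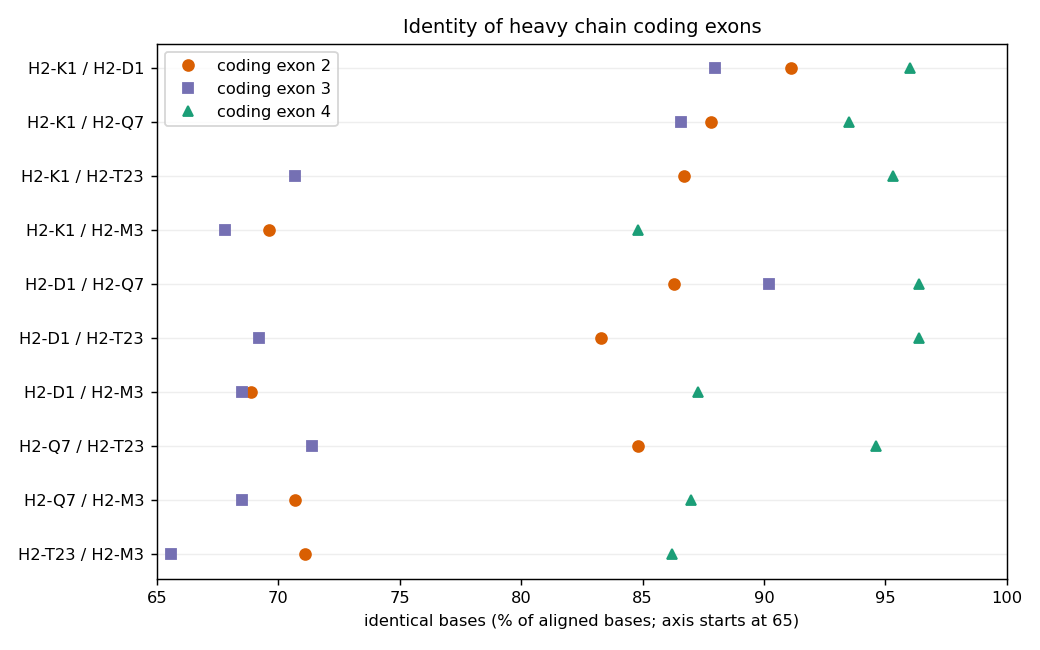
Identical bases, in percent of aligned bases, for coding exons 2 (circles), 3 (squares) and 4 (triangles) in each pair of the 5 heavy chain genes; the axis starts at 65%. Exon 4 is the most alike in every pair, at 84.8% to 96.4%.

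Promoter sequences (RefSeq, GRCm38.p6, 250 bases before to 50 after the start) were held for 8 of the 10 genes, H2-K1, H2-D1, B2m, Tap1, Tapbp, H2-T23, H2-Q7 and H2-M3. They were searched on both strands for 4 short motifs of the factors known to act on class I genes. The Y box core ATTGG, bound by NF-Y, was found in 8 of the 8 and in 37.4% of all 32851 promoters. From 150 bases before to 50 after the start, it was in 6 of the 8 and in 28.6% of all. On the strand of the gene alone, it was in 6 of the 8 and in 22.1% of all. TGACG, the core of the X2 box and of cyclic AMP response elements, was found in 6 of the 8 and in 20.8% of all. The NF-kB motif GGGANTNNC was found in 6 of the 8 and in 14.0% of all. In H2-M3 it shares 1 base with a Y box match, and in H2-K1, H2-D1 and H2-Q7 it matches both strands at the same place. The interferon response core GAAANNGAA was found in B2m and H2-T23, 2 of the 8, and in 8.56% of all.

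In 5 promoters, those of H2-K1, H2-D1, B2m, H2-Q7 and H2-M3, TGACG is followed on the same strand by ATTGG at a distance of 24 or 25 bases from first base to first base. This spacing was noticed in the members and then counted, so the count is a description. It occurs in 43 of the 32851 promoters (0.131%), which belong to 38 genes, and in 0 of 12 promoters of the other heavy chain and class I-like genes. The 5 sequences are shown because they share this arrangement. Each is the 250 bases before the RefSeq start, 5′ to 3′ on the strand of the gene, with capitals at matches of the 4 motifs. They span chr17:34000348-34000597 (minus strand, H2-K1), chr17:35262844-35263093 (plus strand, H2-D1), chr2:122147437-122147686 (plus strand, B2m), chr17:35438905-35439154 (plus strand, H2-Q7) and chr17:37269984-37270233 (plus strand, H2-M3) of GRCm38.p6.
H2-K1: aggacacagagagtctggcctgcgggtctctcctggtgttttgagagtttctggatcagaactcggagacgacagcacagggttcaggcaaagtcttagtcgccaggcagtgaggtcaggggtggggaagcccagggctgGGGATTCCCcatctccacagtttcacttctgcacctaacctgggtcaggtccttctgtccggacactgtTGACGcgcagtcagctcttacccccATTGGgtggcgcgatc
H2-D1: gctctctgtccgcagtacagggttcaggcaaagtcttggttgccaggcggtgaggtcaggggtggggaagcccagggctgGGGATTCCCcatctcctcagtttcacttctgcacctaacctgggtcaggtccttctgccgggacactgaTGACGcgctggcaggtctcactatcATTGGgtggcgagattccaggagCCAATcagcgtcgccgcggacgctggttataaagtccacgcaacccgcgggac
B2m: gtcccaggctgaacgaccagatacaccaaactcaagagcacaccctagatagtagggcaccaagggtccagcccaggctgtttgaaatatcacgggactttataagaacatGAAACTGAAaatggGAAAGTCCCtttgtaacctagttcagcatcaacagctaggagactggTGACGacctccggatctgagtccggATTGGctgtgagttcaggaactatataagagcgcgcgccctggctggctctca
H2-Q7: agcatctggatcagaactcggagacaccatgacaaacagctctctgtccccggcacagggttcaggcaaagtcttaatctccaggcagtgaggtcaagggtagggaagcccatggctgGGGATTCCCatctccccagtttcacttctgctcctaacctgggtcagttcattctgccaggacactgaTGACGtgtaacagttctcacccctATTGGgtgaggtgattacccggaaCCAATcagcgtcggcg
H2-M3: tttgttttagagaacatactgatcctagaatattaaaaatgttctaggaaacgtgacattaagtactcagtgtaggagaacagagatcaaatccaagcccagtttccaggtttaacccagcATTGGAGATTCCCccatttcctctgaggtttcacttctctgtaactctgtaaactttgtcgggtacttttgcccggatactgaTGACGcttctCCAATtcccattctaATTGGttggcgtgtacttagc
Counted with the start site at 0, the first base of TGACG in these pairs lies at -41 in H2-K1, -101 in H2-D1, -78 in B2m, -64 in H2-Q7 and -46 in H2-M3. The 5 genes run from 452 normalized counts per kb (H2-M3) to 44897 (B2m), so genes with this arrangement had very different levels. H2-T23, with no TGACG in the window, had 3696 per kb.

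**Figure D5:**
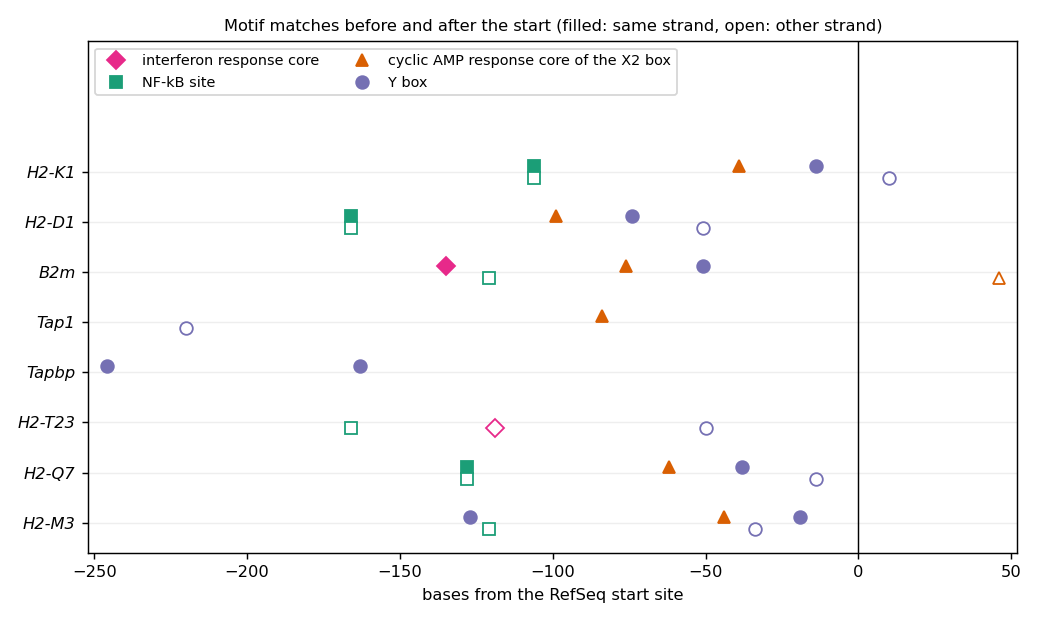
Position of motif matches from 250 bases before to 50 bases after the RefSeq start of 8 class I presentation genes (horizontal axis, bases from the start; filled symbols on the strand of the gene, open symbols on the other strand). In H2-K1, H2-D1, B2m, H2-Q7 and H2-M3 a triangle (X2 core) is followed by a filled circle (Y box) 24 or 25 bases further on.

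Other genes of the pathway were taken from fixed lists. Of all 23084 genes of the table, 14312 had a mean of at least 10 normalized counts, so passing this minimum is common. Of 16 other heavy chain and class I-like genes, 13 were listed and 10 had a mean of at least 10 normalized counts. The highest per kb were H2-Q6 (1934) and H2-Q10 (1933), and the lowest was H2-M5 (0.155), with H2-T3, H2-M9 and H2-M10.1 not listed. H2-Q10 is known as a secreted chain made by the liver. Of the windows of 50 bases of its coding transcript, 8.03% occur in another gene. That transcript has 1991 bases, against 4328 for the longest, and the part of shared sequence in its level was not tested. All 8 genes of peptide loading and chaperones were above a mean of 10, from Erap1, which trims peptides, at 237 per kb to Calr (calreticulin) at 3349. Pdia3, the disulfide isomerase of the loading complex, had 2421 per kb, next to Tapbp at 2396.

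All 9 proteasome genes were above the minimum, from Psmb7 at 442 per kb to Psme2, a subunit of the interferon-induced activator, at 2219. The immunoproteasome subunits Psmb8, Psmb9 and Psmb10 had 1761, 848 and 865 per kb of the longest transcript. Their ratios to the constitutive subunits that they replace were 2.10 for Psmb8 over Psmb5, 0.717 for Psmb9 over Psmb6 and 1.96 for Psmb10 over Psmb7, and per kb of coding sequence 4.25, 2.33 and 0.913, so the direction of the last 2 changed with the length. Among 15 regulators, Irf1, an interferon-induced factor of class I promoters, was the highest at 3278 per kb and Rfxank, a subunit of the factor that binds the X box, the lowest at 101.

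Class II genes, which present peptides to CD4 T cells, are expressed by fewer cell types. The 6 class II genes of the list had a median of 6042 per kb, against 1967 for the 10 members. They ran from H2-DMa at 963 per kb to Cd74, the invariant chain, at 33280, with H2-Ab1 at 10682. The sets are unlike, since the members include the transactivator Nlrc5, while the class II list leaves out Ciita (378 per kb). Also left out are H2-DMb2 (1627 per kb), H2-Ob (1061), H2-Oa (549) and H2-Eb2 (179). All of these lie below both medians, so the medians do not order class I against class II. H2-D1 was 3.66 times H2-Ab1 per kb of the longest transcript, 6.31 times per kb of merged exons and 4.64 times per kb of coding sequence. B2m was 1.35 times Cd74 per kb of the longest transcript and 1.93 times per kb of coding sequence.

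Nearly all nucleated cells express class I genes, and markers of several cell types were present in the pooled values. Markers of neutrophils had the highest median of the lists, 85973 per kb over 8 genes, and ran from Mpo at 1482 to S100a9 at 1397989, with Elane at 1720 and the sort marker Ly6g at 8346 per kb. The 8 monocyte markers had a median of 845 per kb, from Ly6c1 at 73.8 to Itgam at 11546. Itgam encodes CD11b, by which both subsets were sorted, so it does not tell monocytes from neutrophils here, and the highest of the other monocyte markers were Ly6c2 at 5378 and Csf1r at 4714 per kb. All 5 B cell markers were present, from Pax5 at 571 to Cd79a at 4065 per kb, and so were all 5 macrophage markers, from Adgre1 at 2084 to C1qb at 9704. The 6 T and NK cell markers reached 302 per kb at most and the 5 dendritic cell markers 50.4. Among erythroid markers, Hbb-bs, a β-globin gene, had 13663 per kb. The part of each cell type in the class I levels was not tested.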

How the data were processed

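Per the labels, RNA of 8 sorted samples was sequenced. The submitters' processing notes name cutadapt 1.14 (adapter trimming), STAR 2.5.2b (alignment), RSEM 1.3.0 (gene estimates), DESeq2 1.20.0 (comparison) and mm10, and the study's methods name GENCODE M12. The authors' deposited table holds, per gene, a mean signal (counts divided by size factors, averaged by the authors) and 6 columns of their own comparison (fold change on the log2 and the linear scale, standard error, test statistic, and raw and adjusted p-value). The comparison columns were not used, since they are the study's own result, and 0 columns could be tied to a single sample. The count test planned for values per sample was therefore not run. The values used carry no depth per sample, so no interval or detection limit is given.

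Gene lengths, positions and transcripts were taken from GENCODE M21 (mm10), in which 23004 of 23084 identifiers were found without their version. Where a symbol had several rows (28 symbols), that of the highest mean stood for it. Exons of equal length were compared base by base, and others aligned globally (match 5, mismatch -4, gap open -20, gap extension -1). Named genes are the 10 members, the extremes and examples of each pathway list, cell type markers and Lmna. Tapbpl, Pdia3, the proteasome pairs, Ciita, Cd74 and H2-Ab1 were picked from those lists as counterparts after their values were seen. The members and lists were chosen with earlier results of these data known. The search for shared windows and the identity count were tested on made-up sequences. Python 3.11.15, pandas 2.3.3, numpy 2.4.6, Biopython 1.88 and matplotlib 3.10.9 were used.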

Additional observations from a re-analysis of the deposited data

How the results depend on the processing

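No paired analysis was possible because the values used were 1 pooled mean per gene, with none per sample. Leaving out a replicate, other count tests and other normalizations could not be run for the same reason. A value was taken as moved when it differed by over 1.5 times, since no spread between samples is known. Of 66 alternative values, 54 stayed within that limit and 12 did not. The ratio of H2-K1 plus H2-D1 to B2m was 1.24 per kb of the longest transcript and 2.92 without division by length. The share of the summed signal held by the 10 genes was 0.744%, 0.838% without the 10 most abundant genes and 0.770% of protein-coding genes. Of the pathway list, 48 genes had a mean of at least 10, 50 of at least 1 and 47 of at least 100. Of all 23084 genes of the table, 14312, 19668 and 10237 did. Ranks per kb stayed within the limit in all 20 alternatives. These only left out genes with a mean below 10 or genes that are not protein-coding, so they could hardly move the rank of abundant genes. Ranks among all genes were not compared between gene lengths. Of 20 levels per kb under the other lengths, 9 moved, 8 of them by division with the shorter coding length and H2-K1 also with merged exons. On the strand of the gene alone, the NF-kB motif was in 3 of the 8 promoters and in 8.08% of all, against 6 and 14.0% on both strands. The interferon core was then in 1 of the 8 and in 4.48% of all, against 2 and 8.56%. From 150 bases before to 50 after the start, the NF-kB motif was in 4 of the 8 and in 9.8% of all. Protein identity was not run, as no protein table was used here, and identity of coding sequences took its place. With gaps counted, identity of the whole coding sequences ran from 65% to 88.3% over the 10 pairs, against 72.8% to 91.5% over aligned bases. The use of coding sequences and the count with gaps were chosen after seeing the data. So were merged exons for the ratio of H2-K1 plus H2-D1 to B2m.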

Other observations

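The table also lists 9 other genes with an H2 symbol, outside the fixed lists. H2-Ob and H2-Oa, the chains of the class II chaperone H2-O known from B cells, had 1061 and 549 normalized counts per kb. H2-DMb2 had 1627 per kb, against 998 for H2-DMb1. H2-Q5, which shares 20.1% of the windows of 50 bases of H2-Q7, had 607 per kb. H2-K2 and H2-T-ps, for which the annotation gives no coding sequence, had 197 and 63.5 per kb, and H2-Bl had 0.981.

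Of the 38 genes with the promoter spacing shared by H2-K1, H2-D1, B2m, H2-Q7 and H2-M3, 30 were in the table, with a median mean of 741 normalized counts. The median mean of all genes of the table was 46.8. These sets are unlike, since the table also lists genes for which no promoter was held, such as Tap2 and Nlrc5. The median of the table's genes with a promoter is not given here. Among the 30 genes, the 4 highest means were those of H2-D1, B2m, H2-K1 and Hnrnpf, an RNA-binding protein gene. The set includes the members in which the spacing was first noticed, so its level is in part set by how the spacing was found.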
